A study of Mus musculus with 13 samples.

Results

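Genes of mitosis and chromosome segregation were examined in T cells that had been isolated by flow cytometry out of B16-F10 melanomas, a transplanted mouse tumor line, with and without ablation of regulatory T (Treg) cells. The list held 60 genes, fixed by symbol, from cyclins and Cdk1 through the kinetochore and spindle to cytokinesis, and all 60 were among the 12963 genes of the expression table. All mice carried the Foxp3-EGFP-DTR allele, in which the Foxp3 locus drives EGFP together with the human receptor for diphtheria toxin, and bore tumors under the skin. The animals received either saline (PBS), which leaves Treg cells in place, or diphtheria toxin (DTx), which kills cells that express Foxp3. There were 13 RNA sequencing libraries. After PBS they held Treg cells (3 libraries, named Treg PBS) and CD4 or CD8 conventional T (Tconv) cells (2 libraries each, CD4 PBS and CD8 PBS), and after DTx they held CD4 or CD8 Tconv cells (3 libraries each, CD4 DTx and CD8 DTx). Replicates were given as separate samples, which the methods describe as biological and collected on separate days. Nothing in the labels tied them to single animals or litters, or said that a shared replicate number marks a shared day.

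A dividing cell builds its mitotic machinery late in the cell cycle. Cyclin A and B proteins with Cdk1 start mitosis, condensin and topoisomerase II compact the chromosomes, and kinesins and kinetochore proteins attach them to the spindle. The spindle checkpoint then holds back the anaphase-promoting complex until every chromosome is attached. Transcripts of most of these genes peak in G2 and mitosis and are low in resting cells, so that their level in a T cell population is a common readout of how many of its cells are dividing. In tumors, Treg cells and recently activated Tconv cells are known to proliferate. In sorted bulk RNA, more dividing cells and more transcript per dividing cell cannot be told apart.

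Levels are normalized reads, that is, sequencing reads per gene divided by a size factor for the library. Between 15947556 and 34140486 reads per library lay behind these values, and a floor of 3 reads corresponded to 1.98 to 4.10 normalized reads. Sorting labels were checked by lineage genes. Foxp3 was at 1178, 1856 and 1896 normalized reads in Treg PBS and at 0 to 12.1 in the other 10 libraries, and the summed level of Cd8a and Cd8b1 was 63851 or above in the CD8 libraries and 3662 or below in the others. Of 12 melanocyte genes, 6 were listed in the table, and their summed level was 435 and 530.4 in CD4 PBS, 191, 112 and 124 in CD4 DTx, 1007 and 465 in CD8 PBS, 199, 126 and 159 in CD8 DTx and 1002, 1027 and 1409 in Treg PBS. The summed level of 3 natural killer cell genes was 3195 in CD8 PBS replicate 2 and 5298 and 1934 in CD8 DTx replicates 2 and 3, against 309 or less in the other CD8 libraries.

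Treg cells and CD8 T cells after DTx had the highest levels of the mitotic list, and CD4 Tconv cells from intact mice the lowest. Summed over the 60 genes, the level was 90382, 156819 and 73957 normalized reads in Treg PBS and 20177 and 20607 in CD4 PBS, a 5.25-fold difference of the means. After DTx the sum reached 47021, 56926 and 49416 in CD4 Tconv cells, 2.51 times the CD4 PBS mean. In CD8 T cells it was 35124 and 24304 under PBS and 78529, 141148 and 78868 after DTx, a 3.35-fold difference. CD4 DTx libraries lay between the CD4 PBS and the Treg PBS libraries, whereas CD8 DTx libraries overlapped Treg PBS, whose highest sum was that of replicate 2. Treg PBS had the highest mean for 38 genes and CD8 DTx for 21. Smc4, a condensin subunit, gave 7997 and 11079 of the CD4 PBS sums, and without it the CD4 PBS sums were 12180.3 and 9528 against 40437, 53326 and 46256 in CD4 DTx. The share of all reads on the 60 genes ran from 0.0914% to 0.0926% in CD4 PBS, from 0.185% to 0.233% in CD4 DTx and from 0.309% to 0.667% in Treg PBS.

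**Figure D1:**
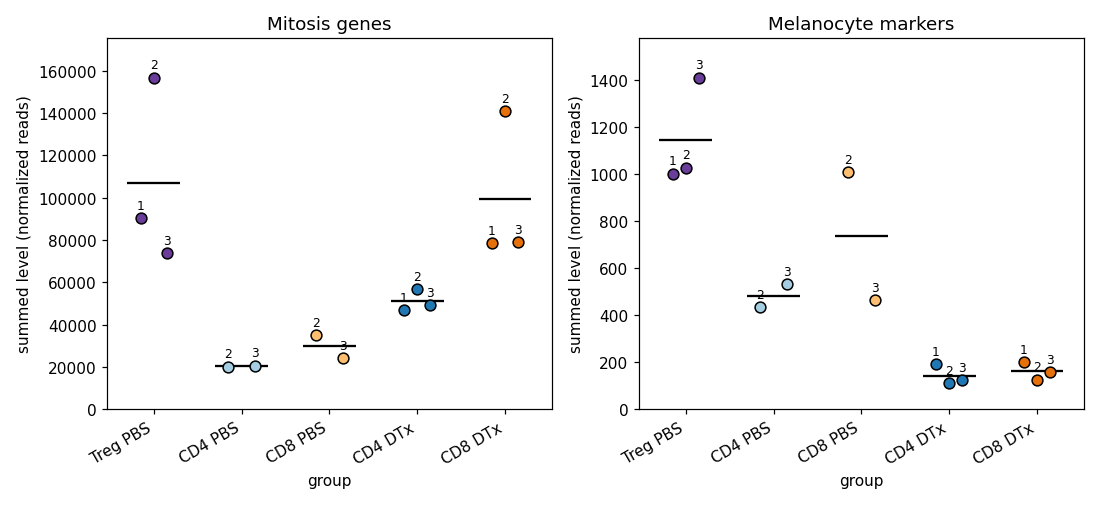
Summed level in normalized reads (vertical axes, from 0) of the 60 mitosis genes, left, and of the 6 melanocyte genes in the table, right, in the 5 groups (horizontal axes). Points are libraries with their replicate number and lines are group means. The highest mitosis sum of a PBS Tconv library is 35124 and the lowest of a CD8 DTx library 78529, and the melanocyte sum is lowest in the DTx groups.

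The order of the group means was the same for most of the list. In 34 genes it ran Treg PBS, CD8 DTx, CD4 DTx, CD8 PBS and CD4 PBS from high to low, and in 18 further genes only the first and second places were exchanged. CD4 PBS had the lowest mean for 56 of the 60 genes. The exceptions were Plk4, Pttg1 and Ndc80, for which the CD8 PBS mean was lowest, and Smc4, for which it was CD4 DTx. Cdc25b was the only gene with its highest mean in CD4 DTx. Neighbours in this order did not all differ beyond their spread. Every CD8 DTx library exceeded every CD4 DTx library for 47 genes (7.88% of the 12667 genes tested did so), and every Treg PBS library exceeded every CD4 DTx library for 46 (15.2% of all genes). Every CD8 PBS library exceeded every CD4 PBS library for 26 genes (21.7% of all genes).

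**Figure D2:**
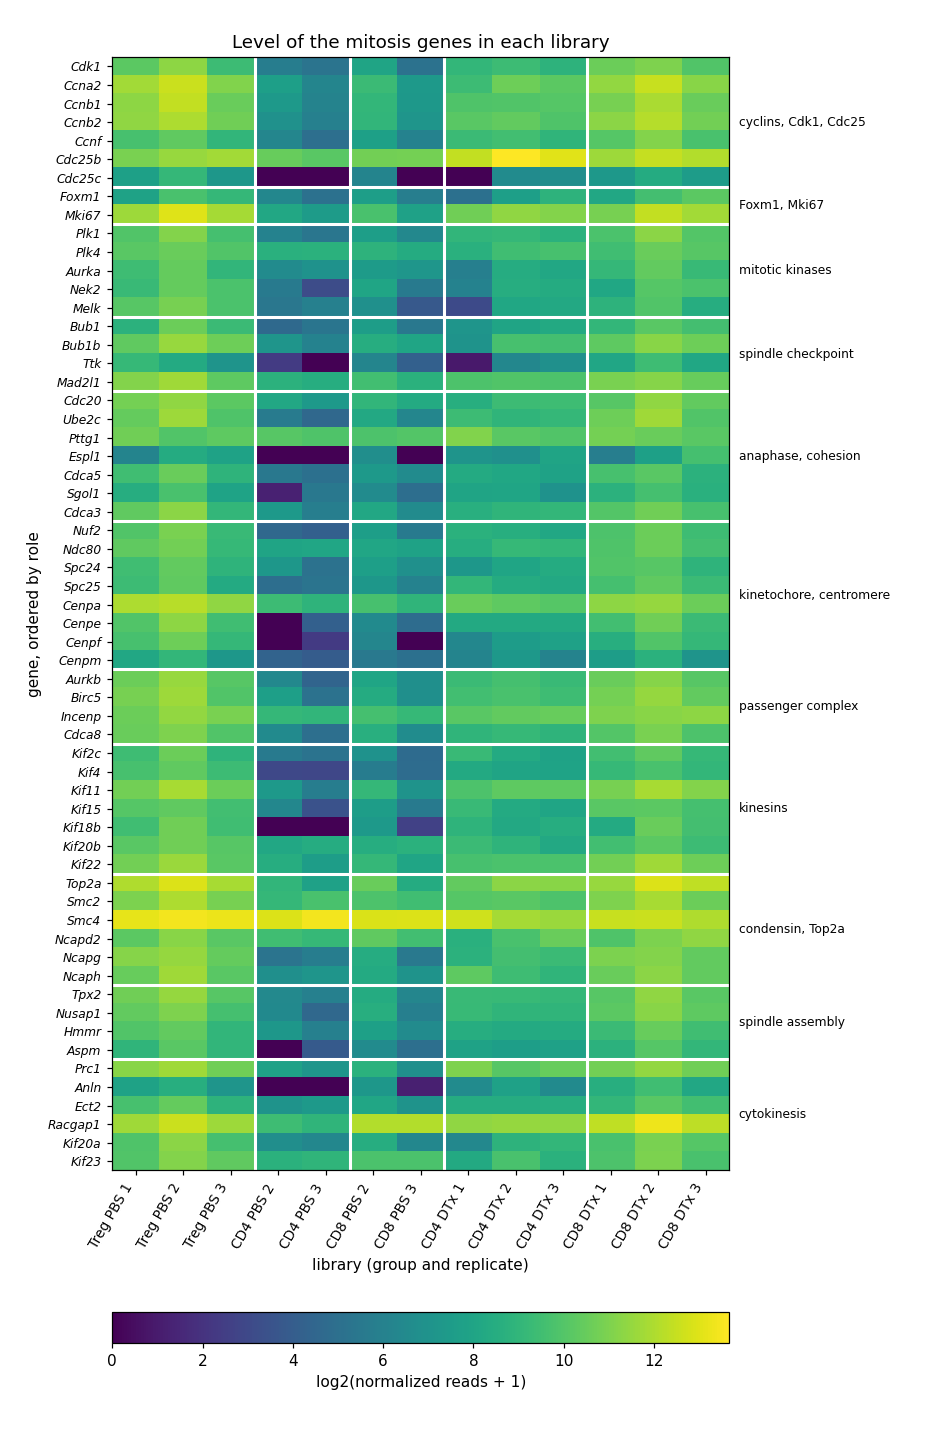
Level of each of the 60 mitosis genes (rows, ordered by role as written at the right) in each of the 13 libraries (columns, by group and replicate) as log2(normalized reads + 1), with white lines between groups and roles. The CD4 PBS columns are darkest, Treg PBS replicate 2 and CD8 DTx replicate 2 are brightest, and Smc4, Cdc25b and Pttg1 stay bright in every column.

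Each gene was compared between groups with limma on log2(normalized reads + 1), fitted to the 12667 genes that had 10 or more normalized reads in 2 or more libraries, and called at an adjusted p-value (Benjamini-Hochberg, over all 12667 genes) under 0.05 with a difference of more than 4-fold. All 60 mitosis genes passed that filter, 53 of them with libraries at 10 or more in all 5 groups. In Treg PBS against CD4 PBS, 52 of 60 were called higher, beside 7.85% of all genes tested, and 0 lower, beside 2.35%. In CD4 DTx against CD4 PBS the counts were 37 higher (5.06% of all genes) and 0 lower (1.79%), and in CD8 DTx against CD8 PBS 39 higher (3.87%) and 0 lower (1.59%). The first and second of these comparisons share the CD4 PBS libraries.

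The promoters of these genes were searched for 2 short elements known from the control of late cell cycle genes, the cell-cycle homology region, searched as TTTGAA and in the rarer form TTCGAA, and the binding sequence of the factor NF-Y, which often lies upstream of it and was searched as CCAAT. RefSeq windows from 250 bases before to 50 after the annotated start (GRCm38.p6) were found for 51 of the 60 genes by symbol. They were not found for Ccna2, Cdc25c, Foxm1, Spc24, Aurkb, Incenp, Smc4, Tpx2 and Kif20a. The window from 100 bases before to 30 after the start is shown for the cyclin B kinase Cdk1, for genes of the cyclin, anaphase, kinesin and cytokinesis groups with matches, among them Cdc25b, Racgap1 and Kif23, which departed from the common order, and for Ccnb1 and Pttg1, which had no homology region match. Capitals mark matches on either strand, written 5′ to 3′ along the gene, so that a homology region on the opposite strand reads TTCAAA and an NF-Y sequence there reads ATTGG.
Cdk1 (chr10:69352883-69353012, minus strand): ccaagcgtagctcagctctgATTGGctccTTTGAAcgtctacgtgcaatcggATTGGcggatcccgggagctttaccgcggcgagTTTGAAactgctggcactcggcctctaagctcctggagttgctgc
Ccnb2 (chr9:70421525-70421654, minus strand): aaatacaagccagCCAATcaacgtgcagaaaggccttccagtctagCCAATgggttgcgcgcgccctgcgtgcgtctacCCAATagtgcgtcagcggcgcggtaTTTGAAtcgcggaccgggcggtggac
Cdc20 (chr4:118437314-118437443, minus strand): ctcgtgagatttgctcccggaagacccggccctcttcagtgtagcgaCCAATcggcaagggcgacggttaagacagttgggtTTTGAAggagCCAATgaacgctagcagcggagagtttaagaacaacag
Ube2c (chr2:164769829-164769958, plus strand): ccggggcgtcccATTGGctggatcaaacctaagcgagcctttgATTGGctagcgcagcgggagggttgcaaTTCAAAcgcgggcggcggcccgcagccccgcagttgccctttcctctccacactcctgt
Kif18b (chr11:102925095-102925224, minus strand): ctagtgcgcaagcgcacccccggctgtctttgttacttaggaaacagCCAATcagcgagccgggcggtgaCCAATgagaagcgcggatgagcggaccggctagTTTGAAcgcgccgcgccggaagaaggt
Racgap1 (chr15:99651627-99651756, minus strand): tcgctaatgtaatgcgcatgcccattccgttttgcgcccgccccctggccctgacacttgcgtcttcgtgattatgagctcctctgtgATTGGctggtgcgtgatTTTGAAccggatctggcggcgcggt
Kif23 (chr9:61946770-61946899, minus strand): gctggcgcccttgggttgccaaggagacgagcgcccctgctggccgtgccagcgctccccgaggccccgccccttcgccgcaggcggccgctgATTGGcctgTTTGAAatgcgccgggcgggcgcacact
Cdc25b (chr2:131186848-131186977, plus strand): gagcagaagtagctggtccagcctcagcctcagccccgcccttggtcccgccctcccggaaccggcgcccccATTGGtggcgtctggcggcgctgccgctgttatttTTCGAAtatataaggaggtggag
Ccnb1 (chr13:100786457-100786586, minus strand): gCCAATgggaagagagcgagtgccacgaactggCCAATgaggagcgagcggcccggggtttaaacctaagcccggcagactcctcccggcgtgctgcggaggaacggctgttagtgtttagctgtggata
Pttg1 (chr11:43425952-43426081, minus strand): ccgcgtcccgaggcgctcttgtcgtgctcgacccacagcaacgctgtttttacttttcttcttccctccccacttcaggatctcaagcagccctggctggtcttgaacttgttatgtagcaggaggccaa

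Over the full windows of 300 bases, either form of the homology region was found on either strand for 40 of the 51 genes (78.4%), against 21.7% of 27025 genes with a window and 16.7% of 9666 other tested genes. CCAAT was found for 37 (72.5%, against 41.1% of all genes), at least 2 times for 25 (49.0%, against 13.3%), and both elements for 34 (66.7%, against 8.61%). Homology region matches lay a median of -11.5 bases from the annotated start in the mitosis genes and -125 in all other genes, and 70.7% against 24.8% lay within 50 bases of it. Neither TTTGAA nor TTCGAA was found for Birc5, Ccnb1, Cenpe, Mad2l1, Melk, Ncaph, Nek2, Nuf2, Nusap1, Plk4 and Pttg1, and other forms of the element were not searched. These 11 genes and the 40 with a match had similar median differences, at 4.56 and 4.25 log2 units in Treg PBS against CD4 PBS, 3.12 and 3.09 in CD4 DTx against CD4 PBS, and 3.07 and 2.98 in CD8 DTx against CD8 PBS. A match is a description of the letters in the window and not a test of a factor.

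**Figure D3:**
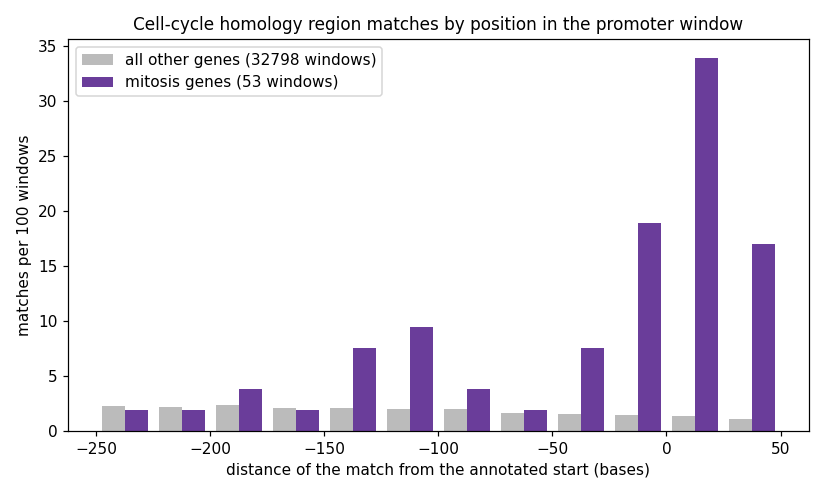
Matches to the cell-cycle homology region letters per 100 promoter windows (vertical axis) in bins of distance from the annotated start in bases (horizontal axis), for the mitosis genes (53 windows of 51 genes) and all other genes (32798 windows). In the bin that starts at the annotated start the mitosis genes have 34.0 matches per 100 windows and the other genes 1.38.

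The cyclins, Cdk1 and the Cdc25 phosphatases made up 7 genes. Of these, 6 were called higher in Treg PBS and 6 in CD4 DTx, both against CD4 PBS. In CD8 DTx against CD8 PBS, 5 of the 7 were called higher. Cdk1, the kinase that drives entry into mitosis, was at 54.7 and 37.6 in CD4 PBS, 530.2, 650.3 and 450.4 in CD4 DTx, 248 and 34.7 in CD8 PBS, 1541, 2047 and 985 in CD8 DTx and 1173, 2594 and 651 in Treg PBS. The Treg PBS, CD4 DTx and CD8 DTx libraries all exceeded every PBS Tconv library. Its log2 fold changes were 4.76 (SE 0.72) for Treg PBS against CD4 PBS, 3.54 (0.72) for CD4 DTx against CD4 PBS and 3.95 (0.72) for CD8 DTx against CD8 PBS, with limma adjusted p = 6.88e-04, 0.00672 and 0.00518. Ccna2 encodes cyclin A2, which acts in S phase and G2, and was at 210.5 and 73.3 in CD4 PBS, 659, 1629 and 1208 in CD4 DTx, 648 and 159 in CD8 PBS, 2810.3, 5803 and 2420.1 in CD8 DTx and 3534, 6094 and 2124 in Treg PBS. CD4 DTx replicate 1 and CD8 PBS replicate 2 were nearly level for it. Ccnb1 and Ccnb2 encode the mitotic cyclins B1 and B2. Ccnb1 was at 161 and 69.4 in CD4 PBS, 964, 979.5 and 1060.1 in CD4 DTx, 528 and 156 in CD8 PBS, 1829, 3892 and 1490 in CD8 DTx and 2625, 5396 and 1496 in Treg PBS. Ccnb2 was at 122 and 61.4 in CD4 PBS, 1154, 1314 and 949 in CD4 DTx, 509 and 137 in CD8 PBS, 2541, 4591 and 1743 in CD8 DTx and 2657, 3993 and 1655 in Treg PBS, and its log2 fold changes were 4.89 (SE 0.56) for Treg PBS against CD4 PBS, 3.69 (0.56) for CD4 DTx against CD4 PBS and 3.36 (0.56) for CD8 DTx against CD8 PBS. For both, each Treg and DTx library lay above all PBS Tconv libraries. Ccnf, the substrate receptor cyclin F, ranged from 30.4 to 75.2 in CD4 PBS, 499 to 745 in CD4 DTx and 513 to 1264 in Treg PBS.

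The 2 Cdc25 phosphatases on the list, which remove inhibitory phosphates from cyclin-dependent kinases, differed from each other. Cdc25b was at 1444 and 1165 in CD4 PBS, 5481, 13003 and 8594 in CD4 DTx, 1748 and 1817 in CD8 PBS, 3192, 5565 and 4375 in CD8 DTx and 1924, 3061 and 3441 in Treg PBS. All 3 CD4 DTx libraries exceeded every PBS Tconv and Treg PBS library, and of the CD8 DTx libraries replicate 2 lay just above the lowest of them. The log2 fold change was 2.71 (SE 0.35, adjusted p = 4.70e-04 by limma) for CD4 DTx against CD4 PBS, 1.07 (adjusted p = 0.051) for Treg PBS and 1.26 (adjusted p = 0.0408) for CD8 DTx against CD8 PBS, which was under the 4-fold limit. CD4 DTx exceeded Treg PBS by 1.64 (SE 0.32, adjusted p = 0.00806 by limma). Cdc25c was at 0 in both CD4 PBS libraries, in CD8 PBS replicate 3 and in CD4 DTx replicate 1, and at 213, 539 and 147 in Treg PBS, at least 73.2-fold above CD4 PBS (limma, adjusted p = 0.0128).

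Mki67, which codes for the surface coat of mitotic chromosomes and is the usual proliferation marker, was at 289.7 and 183 in CD4 PBS, 1695, 2652 and 2233 in CD4 DTx, 842 and 228 in CD8 PBS, 1895, 5508 and 3525 in CD8 DTx and 3253, 8115 and 3685 in Treg PBS. Treg PBS and both DTx groups lay wholly above the PBS Tconv groups, with log2 fold changes of 4.31 (SE 0.57) for Treg PBS against CD4 PBS, 3.22 (0.57) for CD4 DTx against CD4 PBS and 2.92 (0.57) for CD8 DTx against CD8 PBS (limma adjusted p = 3.05e-04, 0.00286 and 0.00713). Foxm1, a transcription factor of G2 and mitosis genes, was at 79.3 and 33.0 in CD4 PBS, 31.8, 211 and 458 in CD4 DTx, 202 and 56.0 in CD8 PBS, 293, 769 and 1201 in CD8 DTx and 238, 867 and 549 in Treg PBS. CD4 DTx replicate 1 was below both CD4 PBS libraries, and only the Treg PBS difference was called, at 3.21 (SE 1.03, adjusted p = 0.0446 by limma). The Treg PBS call of Foxm1 was lost in 7 of 25 alternative analyses, edgeR included, with values between 2.59 and 3.93. For CD4 DTx against CD4 PBS the difference was 1.49 (SE 1.03, adjusted p = 0.386 by limma).

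Of the 5 mitotic kinases, 4 were called higher in Treg PBS, 2 in CD4 DTx and 1 in CD8 DTx. Plk1, which acts from mitotic entry to cytokinesis, was at 65.6 and 40.3 in CD4 PBS, 505, 541 and 425 in CD4 DTx, 203 and 82.6 in CD8 PBS, 903, 2545 and 1042 in CD8 DTx and 992, 2227 and 806 in Treg PBS, and was the kinase called in all 3 comparisons, with log2 fold changes of 4.53 (SE 0.55) for Treg PBS against CD4 PBS, 3.22 (0.55) for CD4 DTx against CD4 PBS and 3.36 (0.55) for CD8 DTx against CD8 PBS. Aurka, the kinase of centrosome maturation, was at 94.3 and 125 in CD4 PBS, 58.0, 349 and 289.7 in CD4 DTx, 181 and 144 in CD8 PBS, 540.4, 1349 and 598 in CD8 DTx and 681, 1406 and 509.7 in Treg PBS. CD4 DTx replicate 1 was again the lowest library of all, and the log2 fold change in CD4 DTx was 0.73 (SE 0.71, adjusted p = 0.543 by limma), against 2.85 (SE 0.71, adjusted p = 0.014 by limma) in Treg PBS. Nek2, a centrosome kinase, was called in Treg PBS and in CD4 DTx (3.29, SE 0.98, adjusted p = 0.0452 by limma). Melk was at 7.48, 281 and 304 in CD4 DTx, 42.4 and 61.4 in CD4 PBS and 1099, 1872 and 904 in Treg PBS. Plk4, the kinase of centriole duplication, was at 405 to 418 in CD4 PBS and 1003 to 1519 in Treg PBS, a difference of 1.54 on the log2 scale that passed the p-value limit (adjusted p = 0.0112) but not the 4-fold limit.

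All 4 spindle checkpoint genes were called higher in Treg PBS, 1 of 4 in CD4 DTx and 2 of 4 in CD8 DTx. Bub1, a checkpoint kinase at the kinetochore, was at 24.6 and 39.0 in CD4 PBS, 138, 255 and 313 in CD4 DTx, 197 and 44.0 in CD8 PBS, 519, 1151 and 778 in CD8 DTx and 434, 1537 and 626 in Treg PBS, and rose in all 3 comparisons, with log2 fold changes of 4.55 (SE 0.69) for Treg PBS against CD4 PBS, 2.81 (0.69) for CD4 DTx against CD4 PBS and 3.04 (0.69) for CD8 DTx against CD8 PBS. Mad2l1, whose product binds and holds Cdc20, was at 432 and 363 in CD4 PBS, 927, 989 and 917 in CD4 DTx, 728 and 431 in CD8 PBS, 1951, 2299.8 and 1459 in CD8 DTx and 2233, 3315 and 1238 in Treg PBS. No DTx library fell to the PBS levels of its own lineage, but the differences, 1.25 in CD4 and 1.74 in CD8 cells (adjusted p = 0.0443 and 0.0111), were below 4-fold. Bub1b and Ttk were both lowest among DTx libraries in CD4 DTx replicate 1, at 128 and 0.935. In the other 2 CD4 DTx libraries they were at 818 and 768 for Bub1b and 79.8 and 116 for Ttk.

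Of the genes of anaphase onset and sister cohesion, 6 of 7 were called higher in Treg PBS, 5 in CD4 DTx and 3 in CD8 DTx. Cdc20, the coactivator through which the checkpoint restrains the anaphase-promoting complex, was at 297 and 169.8 in CD4 PBS, 382, 672 and 679.5 in CD4 DTx, 503 and 325 in CD8 PBS, 1112, 2715 and 1335 in CD8 DTx and 1769, 2666 and 1207 in Treg PBS. Its difference was 2.99 (SE 0.46, adjusted p = 7.56e-04 by limma) in Treg PBS, and 1.31 and 1.97 after DTx in CD4 and CD8 cells, neither of which was called. Ube2c, the ubiquitin-conjugating enzyme of the same complex, was at 50.6 and 23.8 in CD4 PBS, 666, 491 and 539.9 in CD4 DTx, 307 and 76.0 in CD8 PBS, 1616, 3350.5 and 976 in CD8 DTx and 1361, 3218 and 950 in Treg PBS. It was called in all 3 comparisons, with log2 fold changes of 5.49 (SE 0.67) for Treg PBS against CD4 PBS, 3.97 (0.67) for CD4 DTx against CD4 PBS and 3.5 (0.67) for CD8 DTx against CD8 PBS. Pttg1, the securin that blocks separase, was at 1126 and 948 in CD4 PBS, 2192, 1171 and 1003 in CD4 DTx, 934 and 1022 in CD8 PBS, 1788, 1504 and 1148 in CD8 DTx and 1664, 985 and 1239.6 in Treg PBS. Its levels overlapped between Treg PBS and CD4 PBS and between CD4 DTx and CD4 PBS, and no difference was called (log2 fold changes 0.29, 0.41 and 0.57, with 95% intervals of -0.44 to 1.02, -0.32 to 1.14 and -0.16 to 1.3). Espl1, the separase that securin holds back, was at 0 in both CD4 PBS libraries and at 132, 113 and 255 in CD4 DTx, at least 40.7-fold higher (limma, adjusted p = 0.0102). Cdca5, known as sororin, and Sgol1 and Cdca3 were all called in both comparisons with CD4 PBS, with differences of 2.27 to 4.31 in CD4 DTx.

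Kinetochore and centromere genes were called higher in 8 of 8 cases in Treg PBS, 5 of 8 in CD4 DTx and 7 of 8 in CD8 DTx. Ndc80, of the complex that binds microtubules, was at 253 and 271 in CD4 PBS, 367, 561 and 527 in CD4 DTx, 272 and 232 in CD8 PBS, 949.7, 1522 and 763 in CD8 DTx and 1268, 1715 and 560.4 in Treg PBS. CD4 PBS and CD8 PBS overlapped for it, and the CD4 DTx difference was 0.86 (SE 0.44, adjusted p = 0.236 by limma). Its partners Nuf2 and Spc25, at 17.2 to 23.2 and 30.1 to 37.6 in CD4 PBS, had CD4 DTx differences of 4.1 and 3.47, both called. Spc24, the remaining subunit, had a CD4 DTx difference of 1.7 (SE 0.65, adjusted p = 0.117 by limma). Cenpa, the histone H3 variant that marks centromeres, was at 656 and 481 in CD4 PBS, 1501, 1243 and 1054 in CD4 DTx, 827 and 499 in CD8 PBS, 2585, 2874 and 1552 in CD8 DTx and 4030.5, 4666 and 2664 in Treg PBS. Treg PBS exceeded all other libraries except that CD8 DTx replicate 2 lay above the lowest Treg library. Cenpe, a kinetochore motor, was at 0 and 17.2 in CD4 PBS, 318, 320 and 319 in CD4 DTx, 92.3 and 28.0 in CD8 PBS, 748, 1657 and 646 in CD8 DTx and 975, 2620.5 and 712 in Treg PBS. The 3 CD4 DTx libraries were nearly equal, with a change of 6.23 (SE 1.0, adjusted p = 0.00155 by limma), and Treg PBS differed from CD4 PBS by 8.16 (SE 1.0, adjusted p = 1.82e-04 by limma). Cenpf, at 0 and 3.96 in CD4 PBS, was among the largest differences, at 8.66 in Treg PBS and 6.07 in CD8 DTx. Cenpm was called in all 3 comparisons.

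The chromosomal passenger complex corrects faulty attachments and later guides cytokinesis. Its kinase Aurkb was at 83.4 and 19.8 in CD4 PBS, 625, 794 and 622 in CD4 DTx, 259 and 112 in CD8 PBS, 1502, 2285 and 1105 in CD8 DTx and 1564, 3008 and 1116 in Treg PBS, with log2 fold changes of 5.38 (SE 0.59) for Treg PBS against CD4 PBS, 4.01 (0.59) for CD4 DTx against CD4 PBS and 3.19 (0.59) for CD8 DTx against CD8 PBS. Birc5, known as survivin, was at 210.5 and 35.0 in CD4 PBS, 745, 847 and 693 in CD4 DTx, 337 and 111 in CD8 PBS, 1774, 2897 and 1337 in CD8 DTx and 1869.6, 3215 and 994 in Treg PBS. CD4 PBS replicates 2 and 3 stood apart for Birc5 and Aurkb, and every CD4 DTx library exceeded both. Both genes were called in all 3 comparisons, as was Cdca8, known as borealin. The scaffold Incenp, by contrast, was at 1137 to 1426 in CD4 DTx, against 512 to 539.8 in CD4 PBS. Its differences of 1.95, 1.3 and 1.79 passed the p-value limit in each comparison (adjusted p = 3.13e-04, 0.00596 and 0.00166) and stayed under 4-fold.

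The 7 kinesins of the spindle and chromosomes, motors that move along microtubules, were all called higher in Treg PBS, 5 in CD4 DTx and 6 in CD8 DTx. Kif11, which pushes spindle poles apart, was at 167 and 54.8 in CD4 PBS, 919, 1217 and 1252 in CD4 DTx, 539 and 128 in CD8 PBS, 1841, 3720.3 and 2205 in CD8 DTx and 1735, 3819 and 1529 in Treg PBS, and its log2 fold changes were 4.48 (SE 0.62) for Treg PBS against CD4 PBS, 3.53 (0.62) for CD4 DTx against CD4 PBS and 3.23 (0.62) for CD8 DTx against CD8 PBS. Kif18b, a motor that shortens astral microtubules, was at 0 and 0 in CD4 PBS, 473, 308 and 366 in CD4 DTx, 163 and 5.33 in CD8 PBS, 328, 1501 and 774 in CD8 DTx and 721, 1692 and 719 in Treg PBS. It was not detected in CD4 PBS, and was at least 255-fold higher in Treg PBS (limma, adjusted p = 8.07e-05) and at least 93.3-fold higher in CD4 DTx (limma, adjusted p = 3.27e-04). Kif4, a chromosome-arm motor, had the smallest p-value of the list in each of the 3 comparisons, with levels of 6.83 and 6.61 in CD4 PBS, 313, 248 and 238 in CD4 DTx and 824, 1298 and 659 in Treg PBS. Its log2 fold changes were 6.85 (SE 0.44, adjusted p = 6.74e-06 by limma) for Treg PBS and 5.11 (SE 0.44, adjusted p = 6.98e-05 by limma) for CD4 DTx. Kif2c, Kif15 and Kif22 ranged from 9.91 to 359 in CD4 PBS and from 237 to 895 in CD4 DTx. Of these 7, Kif20b was called after DTx in neither lineage, with differences of 0.50 and 1.08. The kinesins Kif20a and Kif23 act in cytokinesis and are described with it.

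The chromosome-compaction genes were split. Top2a, the topoisomerase that untangles sister chromatids, was at 504 and 224 in CD4 PBS, 1327, 2497 and 2406 in CD4 DTx, 1481 and 335 in CD8 PBS, 3036, 7853 and 5192 in CD8 DTx and 4268, 7957 and 3708 in Treg PBS. It was called in all 3 comparisons, with log2 fold changes of 3.89 (SE 0.61) for Treg PBS against CD4 PBS, 2.57 (0.61) for CD4 DTx against CD4 PBS and 2.82 (0.61) for CD8 DTx against CD8 PBS, as were Ncapg and Ncaph, subunits of condensin I. Smc2 and Smc4 form the ATPase core that both condensins share. Smc2 was at 543 and 844 in CD4 PBS, 1078, 1147 and 913 in CD4 DTx, 914 and 719.8 in CD8 PBS, 2065, 3768 and 1553 in CD8 DTx and 1989.8, 4099 and 1856 in Treg PBS. Its Treg PBS difference of 1.87 (SE 0.40, adjusted p = 0.00645 by limma) stayed under 4-fold. Smc4 was at 7997 and 11079 in CD4 PBS, 6584, 3600.1 and 3161 in CD4 DTx, 7698 and 7987 in CD8 PBS, 5816, 6031 and 4218 in CD8 DTx and 9029, 10940.2 and 9884 in Treg PBS. Smc4 was lower in every CD4 DTx library than in either CD4 PBS library, with a change of -1.16 (SE 0.29, adjusted p = 0.0208 by limma), and was the only gene of the list to pass the p-value limit in the lower direction in a comparison with PBS cells of the same lineage. Treg PBS and CD4 PBS overlapped for Smc4. Ncapd2, a further condensin I subunit, was called in none of the 3 comparisons.

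All 4 spindle assembly genes were called higher in Treg PBS and in CD8 DTx, and 3 of 4 in CD4 DTx. Tpx2, which activates Aurora A on the spindle, was at 84.7 and 60.8 in CD4 PBS, 624, 586 and 557 in CD4 DTx, 339 and 77.3 in CD8 PBS, 1098, 2701 and 1162 in CD8 DTx and 1650.3, 2930.3 and 1122 in Treg PBS. Its CD4 DTx libraries were close to each other and its log2 fold changes were 4.59 (SE 0.59) for Treg PBS against CD4 PBS, 3.02 (0.59) for CD4 DTx against CD4 PBS and 3.21 (0.59) for CD8 DTx against CD8 PBS. Aspm, a spindle-pole protein, was at 0 and 13.9 in CD4 PBS and 232, 200.4 and 229 in CD4 DTx, a difference of 5.84 (SE 0.93, adjusted p = 0.00146 by limma). Nusap1 was called in all 3 comparisons. Hmmr was under the 4-fold limit in CD4 DTx (1.82, adjusted p = 0.0447).

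Of the 6 cytokinesis genes, 5 were called higher in Treg PBS, 3 in CD4 DTx and 4 in CD8 DTx. Prc1, which bundles microtubules of the central spindle, was at 221 and 139 in CD4 PBS, 2077, 1119 and 1412 in CD4 DTx, 417 and 109 in CD8 PBS, 1701, 2756 and 1661 in CD8 DTx and 2377, 3377 and 1665 in Treg PBS, and its log2 fold changes were 3.75 (SE 0.51) for Treg PBS against CD4 PBS, 3.08 (0.51) for CD4 DTx against CD4 PBS and 3.21 (0.51) for CD8 DTx against CD8 PBS. Racgap1 and Kif23 encode the partners of centralspindlin, the complex that positions the cleavage furrow. Racgap1 was at 693 and 498 in CD4 PBS, 2678, 2853 and 2779 in CD4 DTx, 4362 and 4364 in CD8 PBS, 5202, 10381 and 5011 in CD8 DTx and 3400.5, 6029 and 3273 in Treg PBS. Both CD8 PBS libraries were already above all CD4 DTx libraries and above 2 of the 3 Treg PBS libraries. The DTx effect on Racgap1 was 2.23 (SE 0.33, adjusted p = 9.18e-04 by limma) in CD4 cells and 0.57 (SE 0.33, adjusted p = 0.294 by limma) in CD8 cells. Kif23 was at 428 and 489 in CD4 PBS, 318, 845 and 429 in CD4 DTx, 883 and 889 in CD8 PBS, 920.1, 2028 and 857 in CD8 DTx and 985, 2218 and 1266 in Treg PBS. CD8 PBS exceeded CD4 PBS for it without overlap, and its DTx effects of 0.089 and 0.40 had 95% intervals of -0.93 to 1.11 and -0.62 to 1.42. Anln, the actin scaffold anillin, was at 0 in both CD4 PBS libraries and at 97.3, 223 and 93.5 in CD4 DTx, at least 33.6-fold higher (limma, adjusted p = 0.00353). Ect2 and Kif20a had CD4 DTx differences of 1.26 and 1.56 that were not called.

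**Figure D4:**
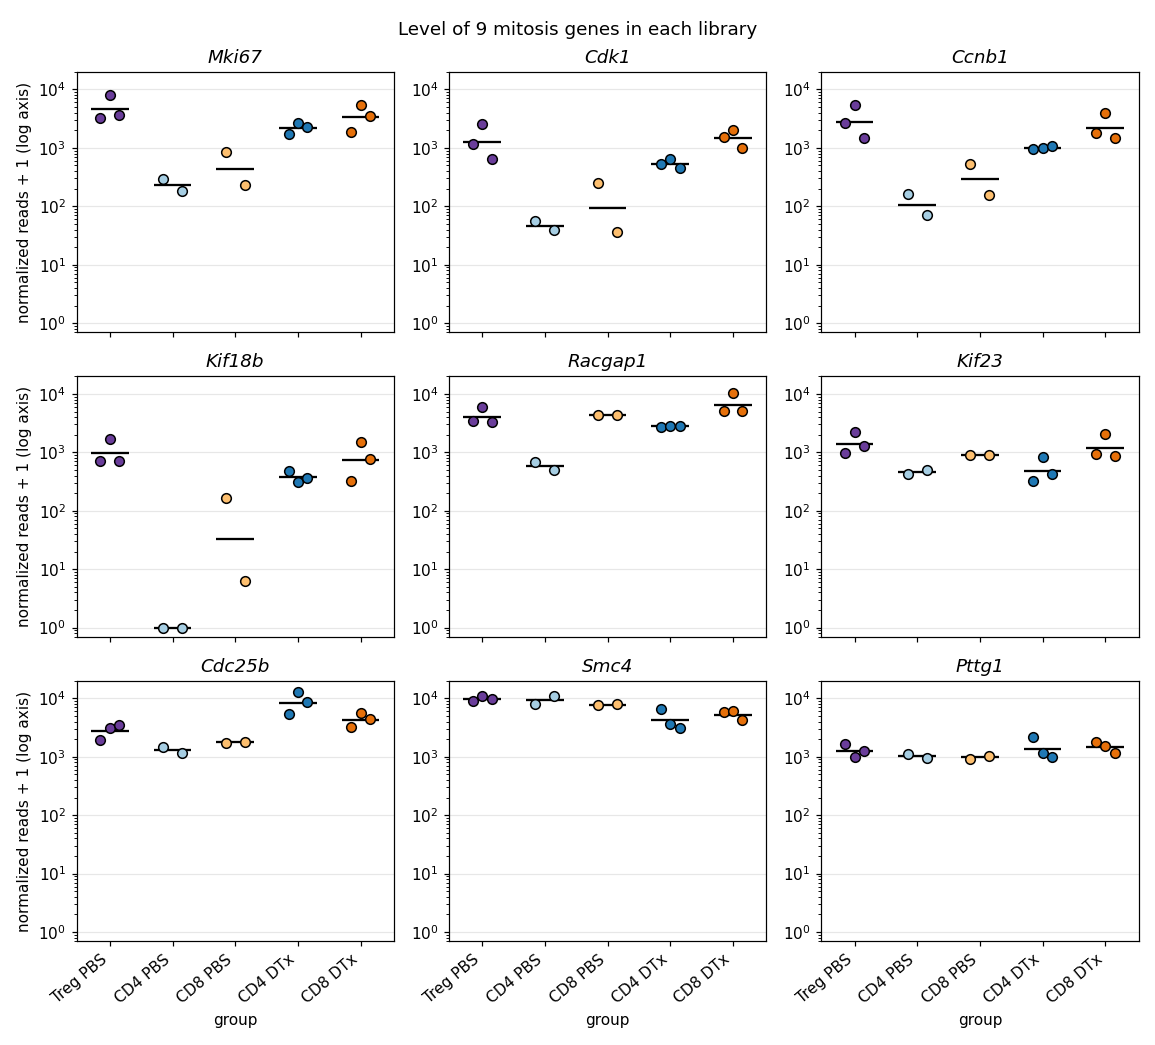
Level of 9 mitosis genes as normalized reads + 1 on a log axis (vertical) in the 5 groups (horizontal). Points are libraries and lines are group means on the log scale. Mki67, Cdk1, Ccnb1 and Kif18b are high in Treg PBS and both DTx groups, Racgap1 and Kif23 are higher in CD8 PBS than in CD4 PBS, Cdc25b peaks in CD4 DTx, Smc4 is lower in CD4 DTx than in CD4 PBS, and Pttg1 is nearly flat.

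Most genes of the list were higher in Treg PBS than in CD4 PBS cells. The fitted difference was positive for all 60 genes, with a median of 4.28 log2 units, also with the 5 genes at or under 3 reads in CD4 PBS set to their lower bounds, against 0.011 over all genes tested. For 58 genes every Treg PBS library exceeded both CD4 PBS libraries, as did 29.2% of all genes tested, and the exceptions were Pttg1 and Smc4. The largest differences were those of Kif18b, Cenpf and Cenpe, and the smallest those of Smc4 (0.076, SE 0.29, adjusted p = 0.88 by limma), Pttg1 (0.29, SE 0.34, adjusted p = 0.561 by limma) and Cdc25b (1.07, SE 0.35, adjusted p = 0.051 by limma). The genes not called were Pttg1, Incenp, Plk4, Cdc25b, Smc2, Kif23, Smc4 and Ncapd2. The summed melanocyte level moved with this comparison, at 1002 to 1409 in Treg PBS and 435 to 530 in CD4 PBS. Its genes did not all do so. Tyrp1, Dct and Trpm1 were higher without overlap between the groups, whereas Tyr, Mitf and Pmel overlapped. Pmel had a fitted difference of -0.63, and only Trpm1 was called (5.12, adjusted p = 0.0217 by limma). The part of these genes in the result was not tested. In the DTx comparisons the melanocyte sum was lower where the mitosis genes were higher. Without CD4 PBS replicate 2 the fitted difference of Smc4 was -0.16. Between 46 and 52 genes were called when any 1 library was left out.

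Mitotic transcripts rose in CD4 Tconv cells after DTx. The difference from CD4 PBS was positive for 59 of 60 genes, with a median of 3.05 against -0.037 over all genes tested, and 47 genes did not overlap between the groups (23.4% of all genes). Kif18b, Espl1 and Anln, undetected in CD4 PBS, had the largest differences. The smallest were those of Kif23 (0.089, SE 0.47, adjusted p = 0.928 by limma), Ncapd2 (0.35, SE 0.55, adjusted p = 0.715 by limma) and Pttg1 (0.41, SE 0.34, adjusted p = 0.47 by limma). Besides Smc4, CD4 DTx replicate 1 was below both CD4 PBS libraries for Foxm1, Aurka, Melk, Plk4, Ncapd2 and Kif23. Cd8a was at 103, 711 and 1302 in the CD4 DTx libraries and 31.4 and 26.4 in CD4 PBS. Cd8b1 was at 267, 1641 and 2360 in CD4 DTx and 529 and 589 in CD4 PBS, so that CD4 DTx replicate 1 lay below both. The part of Cd8a and Cd8b1 in the result was not tested. The summed level of the 6 erythroid genes in the table, of 8 listed, was 0, 1774 and 0 in CD4 DTx and 1663 and 11007 in CD4 PBS, where replicate 3 was the higher, and all 6 were at 0 in CD4 DTx replicates 1 and 3. Their part in the result was not tested either. With only 2 CD4 PBS libraries, the count fell to 20 without CD4 PBS replicate 3 and to 25 when the fit held only these 2 groups.

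They rose in CD8 T cells after DTx as well. The difference from CD8 PBS was positive for 59 of 60 genes, with a median of 2.99 against -0.026 over all genes tested. In 56 genes every CD8 DTx library exceeded both CD8 PBS libraries (22.8% of all genes), and the exceptions were Kif23, Smc4, Ncapd2 and Espl1. Cenpf had the largest difference that was called (6.07, SE 1.39, adjusted p = 0.0158 by limma), followed by Anln (4.52, SE 1.28, adjusted p = 0.042 by limma). The call of Anln was lost in 13 of 25 alternative analyses, edgeR and DESeq2 included, with values between 1.52 and 7.52, and that of Cenpf in 4, with values between 2.95 and 9.2. Cdc25c, at 4.65, was not called. The smallest differences were those of Kif23 (0.40, SE 0.47, adjusted p = 0.608 by limma), Smc4 (-0.57, SE 0.29, adjusted p = 0.236 by limma) and Racgap1 (0.57, SE 0.33, adjusted p = 0.294 by limma). CD8 PBS replicates 2 and 3 lay far apart for many genes, as for Cdk1 at 248 and 34.7, and the number called changed with the libraries in the fit. It was 1 gene when the fit held only the 2 CD8 groups, 3 without CD8 PBS replicate 3, and 22 without CD8 DTx replicate 2. The natural killer cell genes were also highest in CD8 PBS replicate 2 and CD8 DTx replicate 2, the libraries in which the mitosis sum was highest within each group. The B cell sum, most of it Cd79b, was 853 and 794 in CD8 PBS and 351, 1296 and 276 in CD8 DTx. The erythroid sum was 2881 and 11511 in CD8 PBS, where replicate 3 was the higher, and 32.3, 1368 and 306 in CD8 DTx. The 13 myeloid genes in the table, of 15 listed, overlapped in sum, at 2277 and 686 in CD8 PBS and 1925, 3117 and 2508 in CD8 DTx. Of these, Itgam was at 205 and 13.3 in CD8 PBS and 513, 1554 and 1606 in CD8 DTx, and Cd68 at 273 and 124 and 1055, 1034 and 607. Lyz2 was lower in each CD8 DTx library than in either CD8 PBS library, and none of the 12 myeloid genes tested was called (Itgam 4.32, adjusted p = 0.0678; Cd68 2.24, adjusted p = 0.0918, both by limma). The part of these genes in the result was not tested.

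**Figure D5:**
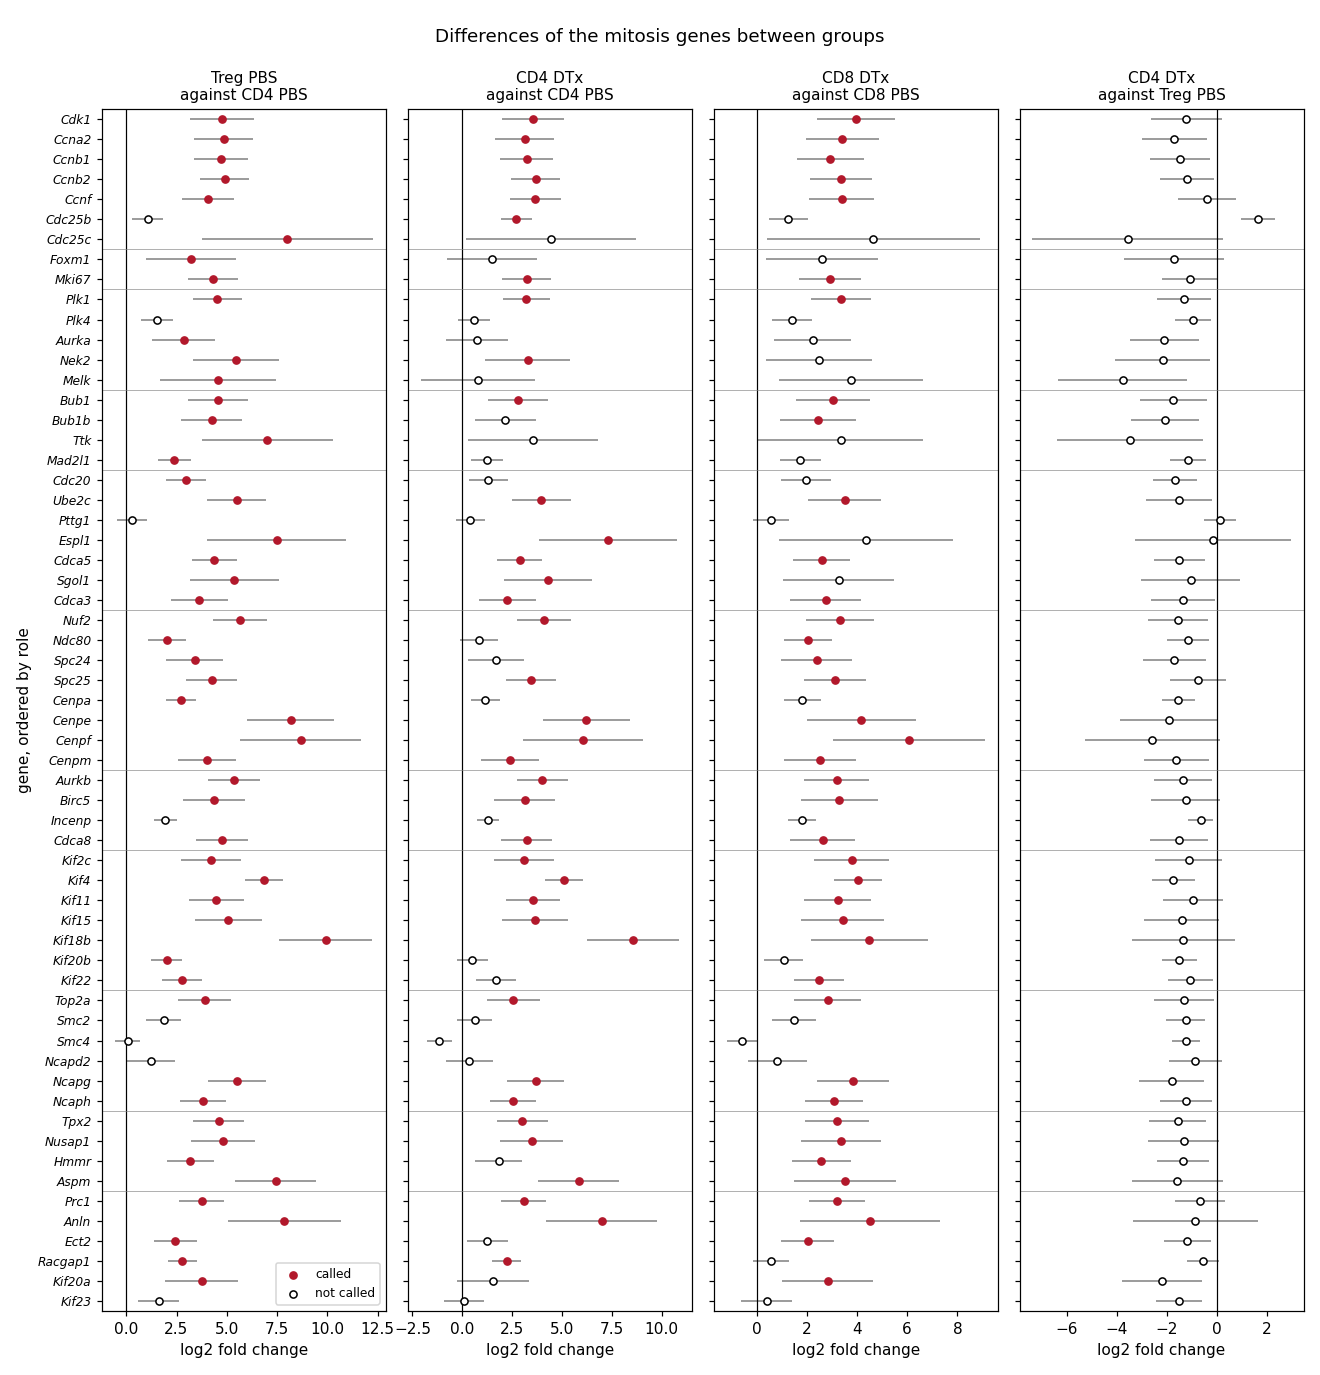
Log2 fold change (horizontal axes, on log2(normalized reads + 1)) of the 60 mitosis genes (rows, by role) in 4 comparisons, with 95% intervals of the limma fit as lines, filled points for genes called and open points for the others. Points lie to the right of 0 in the first 3 panels for nearly every gene, and to the left in the panel of CD4 DTx against Treg PBS for 58 of 60.

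Few genes of the list were called between the Tconv lineages under PBS. In CD8 PBS against CD4 PBS 2 of the 60 genes were called higher (0.742% of all genes tested) and 0 lower (0.166%). The called genes were Racgap1 (2.89, SE 0.36, adjusted p = 0.00207 by limma) and Kif4 (2.35, SE 0.48, adjusted p = 0.0392 by limma). The largest fitted differences, those of Kif18b, Anln and Ttk, were not called (adjusted p = 0.077, 0.337 and 0.592), and the smallest were those of Plk4, Ndc80 and Pttg1, at -0.052, -0.060 and -0.080. The median difference was 1.16 against 0 over all genes tested, and 55 of 60 genes were positive, as were 49.0% of all genes. Of the 60, 17 had an unadjusted p under 0.05 by limma, as did 827 of the 12667 genes tested. Without CD8 PBS replicate 3, 8 genes were called.

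CD4 DTx cells lay below Treg PBS cells over most of the list, but no gene passed both limits. The difference from Treg PBS was negative for 58 of 60 genes with a median of -1.36, against -0.041 over all genes tested, and 0 genes were called higher (1.56% of all genes tested) or lower (2.45%) by limma. At an unadjusted p under 0.05 there were 38 genes (21.5% of all genes), and at the adjusted limit without a fold limit 1 was higher, beside 3.36% of all genes, and 6 were lower, beside 4.55%. The gene that was higher was Cdc25b, and the 6 that were lower were Cdc20, Kif20b, Cenpa, Kif23, Kif4 and Smc4, with differences between -1.75 and -1.23. edgeR also called 0 and DESeq2 called 4. With limma, a pseudocount of 10 gave 4 and the replicate number as a block gave 5. The largest fitted differences were those of Melk (-3.77, SE 1.18, adjusted p = 0.0737 by limma), Cdc25c (-3.57) and Ttk (-3.47), and the smallest those of Pttg1 (0.11), Espl1 (-0.17) and Ccnf (-0.39).

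Between CD8 DTx and Treg PBS cells no mitosis gene was called. The median difference was -0.062, against -0.024 over all genes tested, with 24 genes positive and 36 negative. By limma 0 genes were called higher (2.14% of all genes tested) or lower (2.79%), and edgeR and DESeq2 also called 0. An unadjusted p under 0.05 was found for 3 genes (19.5% of all genes), Racgap1 at 0.67, Cenpa at -0.71 and Smc4 at -0.91. Intervals were wide. For Mki67 the difference was -0.47 with a 95% interval of -1.58 to 0.65, for Cdk1 0.22 with -1.19 to 1.62, and for Top2a -0.0084 with -1.2 to 1.18. These do not show that the levels were equal. The largest fitted differences were those of Melk (-1.16), Smc4 and Anln (0.89), and the smallest, besides Top2a, those of Hmmr (-0.021) and Kif20a (-0.038).

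A difference between the CD4 and the CD8 response to DTx was not detected for any gene of the list. In the test of the difference of the 2 effects 0 genes were called higher in CD4 cells (0.0237% of all genes tested) or lower (0.0237%) by limma, edgeR called 0, and DESeq2 called 1, Kif18b. An unadjusted p under 0.05 was found for 3 genes (4.05% of all genes), Racgap1 (1.67, SE 0.47, adjusted p = 0.464 by limma), Cdc25b (1.45, SE 0.50, adjusted p = 0.877 by limma) and Kif18b (adjusted p = 0.986 by limma), each with the larger fitted effect in CD4 cells. Kif18b and Espl1 were at 0 in both CD4 PBS libraries, so that the sizes of their differences are not bounded. For Mki67 the difference was 0.30 with a 95% interval of -1.46 to 2.06. Among the largest fitted differences were also those of Melk (-2.95) and Espl1, and the smallest were those of Cenpf (0.0019), Nusap1 (0.12) and Prc1 (-0.13).

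Further genes of the same pathway, 128 in 8 lists that did not enter the 60, were examined beside them. Of 29 tested spindle and cytokinesis genes, 20 were called higher in Treg PBS and 9 in CD4 DTx, both against CD4 PBS, and 11 in CD8 DTx against CD8 PBS, beside 7.85%, 5.06% and 3.87% of all genes tested. The smallest adjusted p-values in Treg PBS were those of Cks2, a small Cdk1 subunit (2.9, SE 0.33, adjusted p = 1.03e-04 by limma), Cep55, which recruits the abscission machinery (6.1, SE 0.70, adjusted p = 1.21e-04 by limma), Pbk, a mitotic kinase (7.85, SE 1.0, adjusted p = 2.27e-04 by limma) and Ncapg2, a condensin II subunit (4.03, SE 0.59, adjusted p = 5.60e-04 by limma). Of 30 further kinetochore genes, 13, 5 and 2 were called higher in the 3 comparisons, the last a share near that of all genes, among them Ska1, whose complex couples kinetochores to microtubules. It was at 0 in both CD4 PBS libraries, at 109, 81.8 and 51.4 in CD4 DTx and at 238, 342 and 215 in Treg PBS. Cenpn was called lower when CD4 DTx was set against Treg PBS (-2.35, SE 0.55, adjusted p = 0.0225 by limma).

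The core subunits of the anaphase-promoting complex were called in none of the 7 comparisons (0 of 15 each), with medians between -0.085 and 0.13 on the log2 scale. Cohesin and its loaders were likewise not called except for Esco2, the acetyltransferase of S phase (1 of 12, near the share of all genes), at 6.57, 5.16 and 3.74. Of 7 G1 cyclins and kinases, 3, 2 and 1 were called higher in the 3 comparisons, beside 7.85%, 5.06% and 3.87% of all genes. Ccne2 was called in all 3 (4.69, 3.58 and 2.42), Cdk6 in Treg PBS and CD4 DTx (2.82 and 2.41), and Ccne1 in Treg PBS (2.05).

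Some inhibitors of cyclin-dependent kinases were among the genes that rose. Of all genes tested, 7.85%, 5.06% and 3.87% were called higher in the 3 comparisons. Cdkn1a, which codes for p21, was at 98.4 and 239 in CD4 PBS, 1229.7, 694 and 699 in CD4 DTx, 123 and 244 in CD8 PBS, 819, 671 and 705 in CD8 DTx and 721, 846 and 1117 in Treg PBS, with log2 fold changes of 2.51, 2.45 and 2.07 in the 3 comparisons, all called. Cdkn2b was called in all 3 (3.6, 4.32 and 3.68) and Cdkn2c in Treg PBS and CD8 DTx (2.38 and 2.02). Of 8 inhibitors and pocket proteins tested, 3, 2 and 3 were called higher, with median differences of only 0.56, 0.50 and 0.63. Of 16 genes of the E2F, DREAM and MMB complexes, which switch late cell cycle promoters, 4, 4 and 2 were called higher. Mybl2 and E2f8 were called in all 3 comparisons, at 3.86, 3.09 and 2.77 for Mybl2. E2f8 was at 0 and 0 in CD4 PBS and 72.9, 322 and 128 in CD4 DTx. E2f3 was called in both comparisons with CD4 PBS, E2f7 in Treg PBS and E2f2 in CD4 DTx. Of 11 mitotic exit genes, 2, 2 and 0 were called higher. Mastl, the Greatwall kinase that holds off a phosphatase, and Wee1, which inhibits Cdk1, were called in Treg PBS (4.88 and 3.2) and in CD4 DTx (2.96 and 2.64). Cdc14b fell in CD8 DTx (-2.13, SE 0.40, adjusted p = 0.00605 by limma), where 1.59% of all genes were called lower.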

How the data were processed

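RNA sequencing was analysed for 13 libraries of sorted tumor T cells in 5 groups, taken from cell type and treatment in the labels, with replicate numbers from the titles. According to the labels and the methods, the authors trimmed reads with Cutadapt, aligned them with hisat2 to NCBIM37 (mm9), counted unique alignments and normalized them to library size with intergenic read normalization. The read counter and strand setting are not given in the sources used here, so reads of overlapping genes cannot be told apart. The library kit is named SmartSeq2 in the labels and as a SMARTer low-input kit in the methods. The authors deposited 1 table with a normalized signal per gene and library. In every library 100% of the values were whole reads divided by 1 size factor (tolerance 0.01 reads), so whole reads were recovered (15947556 to 34140486 per library). Without molecular identifiers, floors cover counting error only.

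Linear models (limma 3.58.1, R 4.3.3, empirical Bayes with a mean trend) were fitted to log2(signal + 1) over all 13 libraries, with 5 group means and no covariates, for 12667 genes with at least 10 in at least 2 libraries. The added 1 shrinks log2 fold changes of low genes. Where a group had no reads for a gene, the size of the fitted change depends on the added 1. The methods used DESeq2, which needs counts. The edgeR 4.0.16 quasi-likelihood test and DESeq2 1.42.0 were run on recovered reads as alternatives, as were other pseudocounts, filters, scalings, fold limits, fits with fewer samples and a replicate block. A fold against a group with every library at or under 3 reads is a lower bound, taken against the larger floor of its libraries. The fits were tested on simulated data. The p-values set differences between group means against the spread between libraries, pooled over the groups in the fit and with libraries taken as independent.

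The 60 members and the further lists were chosen with earlier results of these data known. Values in every library are given for 27 genes fixed by name and for Racgap1 and Cdkn1a, and others by range or in some groups only. In each comparison the 3 largest and 3 smallest differences are named, and in the further lists the genes called, or the 4 with the smallest adjusted p-values where more than 10 were called, except for 1 item that is not reported here. Promoter windows came from RefSeq (GRCm38.p6), a different build from that of the reads, and were matched by symbol (Sgol1 as Sgo1). Tables were handled with pandas 2.3.3 in Python 3.11.15. Same-numbered CD4 DTx and CD8 DTx libraries deviated together (r between 0.207 and 0.590 in the 3 pairs), which comes from the data only.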

Additional observations from a re-analysis of the deposited data

How the results depend on the processing

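The direction of change was kept under most alternatives, and the number of mitosis genes called depended on single libraries and on which groups shared an estimate of the spread. Leaving out 1 library at a time gave 46 to 52 genes for Treg PBS against CD4 PBS, 20 to 40 for CD4 DTx against CD4 PBS, 3 to 44 for CD8 DTx against CD8 PBS, 1 to 8 for CD8 PBS against CD4 PBS, 0 to 2 for CD4 DTx against Treg PBS, and 0 for both CD8 DTx against Treg PBS and the difference of the DTx effects. Where 1 library remained in a group it was assumed to vary like the others. With only the groups compared in the fit, 1 gene was called for CD8 DTx against CD8 PBS and 0 for CD8 PBS against CD4 PBS. With a pseudocount of 10 the counts were 1 for CD8 PBS against CD4 PBS and 4 for CD4 DTx against Treg PBS, and DESeq2 gave 9 and 4 for these and 1 for the difference of the DTx effects. For CD4 DTx against Treg PBS, no fold limit gave 7 and a log2 limit of 1 gave 7. The cause of these shifts was not tested.

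With the replicate number as a block, 52, 39, 44 and 0 genes were called for Treg PBS against CD4 PBS, CD4 DTx against CD4 PBS, CD8 DTx against CD8 PBS and CD8 DTx against Treg PBS, 5 for CD8 PBS against CD4 PBS, 5 for CD4 DTx against Treg PBS and 0 for the difference of the DTx effects. Deviations of same-numbered libraries correlated at 0.12 for CD4 PBS with Treg PBS, -0.34 for CD4 DTx with CD4 PBS and 0.016 for CD8 DTx with CD8 PBS. The correlation was 0.19 for CD8 PBS with CD4 PBS and 0.21 for each DTx group with Treg PBS. These correlations do not settle whether a shared replicate number marks a shared day.

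Single genes were recomputed for 115 of the 420 gene and comparison pairs. Of the called ones, 3 of 23 for Treg PBS against CD4 PBS, 10 of 19 for CD4 DTx against CD4 PBS (9 of them without CD4 PBS replicate 3) and 19 of 19 for CD8 DTx against CD8 PBS (each with only the 2 groups in the fit) were lost under at least 1 alternative. Among these 115 pairs no called difference changed sign, and the signs that changed belonged to small or widely spread differences. For the difference of the DTx effects in CD4 and CD8 cells, Cenpf was at -0.59 (pseudocount 10) and -3.13 to 3.13 (1 library left out), Espl1 was at -0.45 to 6.32 (1 library left out), Nusap1 was at -0.044 (pseudocount 10) and -1.2 to 1.44 (1 library left out), and Prc1 was at 0.15 (edgeR on recovered reads) and 0.15 (DESeq2 on recovered reads) and -1.09 to 0.83 (1 library left out). For CD4 DTx against Treg PBS, Espl1 was at -0.83 to 0.29 (1 library left out), and Pttg1 was at -0.22 to 0.34 (1 library left out). For CD8 DTx against Treg PBS, Hmmr was at 0.014 (TMM rescaling) and 0.011 (edgeR on recovered reads) and -0.42 to 0.28 (1 library left out), Kif20a was at -0.39 to 0.48 (1 library left out), and Top2a was at 0.00074 (median-of-ratios rescaling), 0.026 (TMM rescaling), 0.047 (edgeR on recovered reads) and 0.016 (DESeq2 on recovered reads) and -0.34 to 0.35 (1 library left out). For CD4 DTx against CD4 PBS, Kif23 was at -0.31 to 0.40 (1 library left out), and Ncapd2 was at -0.087 to 0.83 (1 library left out). For CD8 PBS against CD4 PBS, Ndc80 was at -0.18 to 0.055 (1 library left out), Plk4 was at -0.26 to 0.16 (1 library left out), and Pttg1 was at -0.20 to 0.044 (1 library left out). For Treg PBS against CD4 PBS, Smc4 was at -0.032 (replicate block) and -0.16 to 0.31 (1 library left out).

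With 2 CD4 PBS and 2 CD8 PBS libraries, and 5 genes at or under 3 reads in both CD4 PBS libraries, the sizes of the DTx effects remain loosely bounded for low genes.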

Other observations

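Within Treg PBS, CD8 PBS and CD8 DTx, most mitosis genes moved together from library to library. In Treg PBS replicate 2 was the highest library for 57 of the 60 genes, against 26.0% of all tested genes. Replicate 3 was the lowest for 48, against 30.6%. In CD8 DTx replicate 2 was the highest for 55 (30.02% of all genes). Replicate 2 was also the higher of the 2 libraries for 54 genes in CD8 PBS (51.9%) and for 39 in CD4 PBS (49.3%). In CD4 DTx replicates 1, 2 and 3 were highest for 18, 24 and 18 genes, against 37.7%, 29.1% and 31.3% of all genes. The median deviation of the 60 genes from their group mean was 0.75 log2 units in Treg PBS replicate 2 and -0.62 in replicate 3, against 0 and 0.058 over all tested genes. The genes furthest below the other libraries in CD4 DTx replicate 1 were Cdc25c, Ttk, Melk, Foxm1, Bub1b, Kif20a, Aurka and Nek2, chosen after their values were seen.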
